A study of Mus musculus with 5 samples.

Results

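The transcripts of 8 genes of plasma cells and antibody secretion were followed in leukocytes of the mouse pancreas. They were chosen by name, as Sdc1, Prdm1, Xbp1, Jchain, Mzb1, Derl3, Fkbp11 and Edem2, and are 8 of the 19938 genes that a probe set on the array reads alone. The cells, CD45+ and isolated by FACS, came from the pancreas of 5 female mice labelled WT NOD, a strain with spontaneous autoimmune diabetes, at 10 weeks of age, and each mouse had 1 array. All mice belong to 1 group with no control, and by label they differ only in the T2 of an MRI scan, a time of transverse relaxation; whether a contrast agent was given before the scan is not stated in the labels used here. Mouse 5 had a T2 of 28.98 ms, mouse 4 of 30.02 ms, mouse 3 of 32.77 ms, mouse 2 of 35.24 ms and mouse 1 of 35.3 ms, so T2 falls with sample number. The labels do not state the order of handling. If it followed sample number, it could not be told apart from T2. The comparison asks whether a transcript differs with T2. The sort kept all leukocytes, so plasma cells are at most a part of each sample, and fewer cells of a type and less RNA per cell cannot be told apart. Ptprc, which encodes CD45, had a log2 intensity of 11.06 ± 0.10 (SD, n = 5).

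Plasma cells are cells of the B lineage that have turned to secreting antibody. Blimp-1, the product of Prdm1, silences much of the B cell program, and Xbp1, a transcription factor made active when the kinase Ire1 splices its mRNA, enlarges the endoplasmic reticulum (ER). Antibody chains are folded there by chaperones, the J chain joins IgM and IgA into polymers, and misfolded chains are drawn out of the ER and degraded. Several of these genes also serve other cells: Prdm1 acts in T cells, plasmacytoid dendritic cells transcribe Mzb1 and Jchain, and acinar cells of the pancreas need Xbp1 and the ER machinery.

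Of the 8 genes, 4 had a mean log2 intensity of at least 6 over the 5 arrays, the level used here as the expression filter: Jchain, Mzb1, Xbp1 and Edem2. Prdm1, Derl3, Sdc1 and Fkbp11 lay under it. Of all 19938 genes 6603 passed. No detection call was used, so the filter stands in for one. Edem2, at 6.80, was the nearest above it and Prdm1, at 5.50, the nearest below. The median intensity over all probe sets was 23.8 to 24.5 on the 5 arrays.

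**Figure D1:**
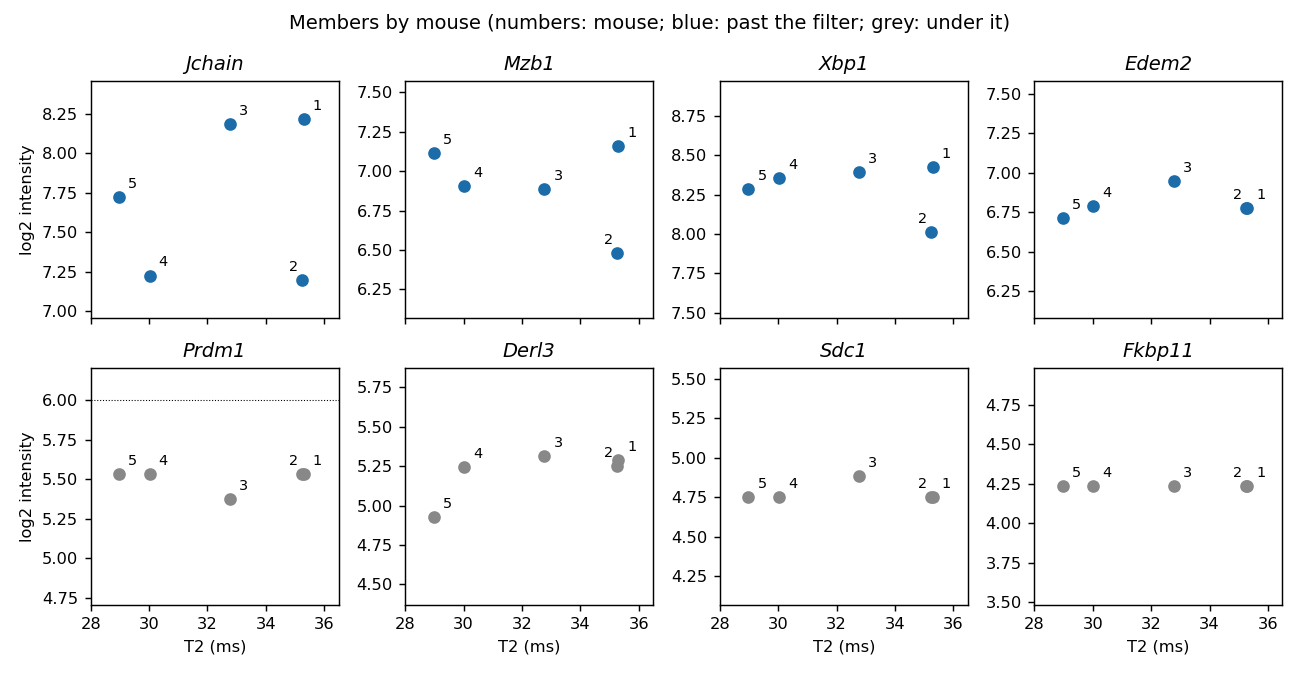
Log2 intensity of each of the 8 genes (vertical axis, the same span of 1.5 in each panel) against the T2 of the mouse in ms (horizontal axis), with 1 point for each mouse and its number beside it; blue points are genes past the expression filter and grey points genes under it, and the dotted line is the filter where it falls within a panel. Jchain is at 7.20 in mouse 2 and 8.22 in mouse 1, which have nearly the same T2, while Fkbp11 is at 4.23 in every mouse.

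Promoters of these genes were searched for elements through which the unfolded protein response acts. The RefSeq table (GRCm38.p6) held promoters of 7 of the 8 by symbol; Mzb1 had no entry. In the 250 bases before the start, on both strands, the ER stress response element, CCAAT then 9 bases then CCACG, was found for 1 of the 7, Derl3, and for 0.13% of the 27025 genes in the table (0.113% of 32851 promoters). The pentamer ACGTG, a core of sites that Xbp1 binds, was found for 3 of the 7, Derl3, Jchain and Edem2, and for 18.5% of genes (16.6% of promoters). TGACGTG, which contains that core, was found for 0 of the 7 and for 1.85% of genes (1.65% of promoters). The stretches of 110 bases that hold the matches are shown because they set Derl3, with the full element, beside the pair of genes past the filter that have the core alone. Capitals mark the matches, and a core read on the opposite strand is printed as CACGT. In Derl3 the first capitals hold the core on both strands, overlapping, and the second are the element read on the opposite strand, 156 to 138 bases before the start. The Derl3 stretch is chr10:75893190-75893299 on the plus strand. The Jchain stretch is chr5:88527910-88528019 and the Edem2 stretch chr2:155729503-155729612, both on the minus strand. A match is a run of letters and does not show binding.
Derl3: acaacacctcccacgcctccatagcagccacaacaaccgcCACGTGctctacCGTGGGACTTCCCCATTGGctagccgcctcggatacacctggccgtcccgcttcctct
Jchain: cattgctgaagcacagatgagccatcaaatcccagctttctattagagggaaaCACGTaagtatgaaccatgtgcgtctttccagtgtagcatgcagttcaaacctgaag
Edem2: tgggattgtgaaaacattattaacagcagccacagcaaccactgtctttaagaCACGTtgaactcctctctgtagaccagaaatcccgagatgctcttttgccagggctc

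Jchain, the joining chain of polymeric IgM and IgA, differed most between mice among the 8 genes. The intensities were 211 (mouse 5), 149.8 (mouse 4), 292 (mouse 3), 147 (mouse 2) and 298 (mouse 1). Mice 1 and 3 were high, mice 2 and 4 were low and nearly equal, and mouse 5 lay between them, an order that does not follow T2. The log2 mean was 7.71 ± 0.50 (SD, n = 5), and 98.1% of the 6603 genes had a smaller SD. Mice 1 and 2, whose T2 differed by 0.06 ms, held the highest and the lowest value, with a ratio of 2.02 of mouse 1 over mouse 2. The T2 slope was 0.038 ± 0.084 log2 per ms (moderated SE, n = 5; limma adjusted p = 0.962 over all genes tested). The fitted ratio of the highest over the lowest T2 was 1.18, with a 95% interval of 0.418 to 3.35.

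Mzb1, an ER protein of marginal zone B cells and plasma cells that helps IgM assembly, had intensities of 139 (mouse 5), 119.7 (mouse 4), 118 (mouse 3), 89.3 (mouse 2) and 143 (mouse 1). Mouse 2 was the low one, and mice 5 and 1, at the lowest and the highest T2, had nearly the same high value. The log2 mean was 6.91 ± 0.27 (SD, n = 5), and mouse 1 over mouse 2 gave a ratio of 1.60. Its T2 slope was -0.035 ± 0.044 log2 per ms (limma adjusted p = 0.870). That is a ratio of 0.858 of the highest over the lowest T2, with a 95% interval of 0.501 to 1.47.

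Xbp1 had intensities of 311 (mouse 5), 327 (mouse 4), 337 (mouse 3), 258 (mouse 2) and 344 (mouse 1). Mouse 2 was below the other mice, which lay close together, and the ratio of mouse 1 over mouse 2 was 1.33. The log2 mean was 8.29 ± 0.17 (SD, n = 5) and the T2 slope -0.014 ± 0.029 log2 per ms (limma adjusted p = 0.947). The ratio of the highest over the lowest T2 was 0.939, with a 95% interval of 0.661 to 1.34. A single probe set stands for the gene, so spliced and unspliced Xbp1 mRNA were not read apart.

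Edem2, a protein that directs misfolded glycoproteins in the ER to degradation, varied least of the 4 genes past the filter. It read 105 (mouse 5), 111 (mouse 4), 123 (mouse 3) and the same value, 109, in mice 2 and 1. Mouse 3 was slightly above the rest. The log2 mean was 6.80 ± 0.087 (SD, n = 5) and the T2 slope 0.0064 ± 0.015 log2 per ms (limma adjusted p = 0.969). The ratio of the highest over the lowest T2 was 1.03, with a 95% interval of 0.851 to 1.24.

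Under the filter, Prdm1 read 41.6 in mouse 3 and 46.3 in each of the other mice. Sdc1, the heparan sulfate proteoglycan CD138 by which plasma cells are often identified, read 29.5 in mouse 3 and 27.0 in each of the others, near the median of all probe sets. Fkbp11, an ER peptidyl-prolyl isomerase, read 18.8 on all 5 arrays, under that median. These 3 genes carried little or no difference between mice. Derl3, a derlin that takes part in the export of misfolded proteins from the ER, read 30.5 (mouse 5), 37.9 (mouse 4), 39.8 (mouse 3), 38.1 (mouse 2) and 39.1 (mouse 1). Mouse 5 was apart at the low end, within a range of 0.38 log2. Fitted with no filter, the slopes were 0.037 log2 per ms for Derl3 (95% interval -0.022 to 0.097, limma adjusted p = 0.813), -0.0014 for Prdm1, 0.0012 for Sdc1 and 0 for Fkbp11.

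None of the 4 genes past the filter was called for T2 by limma (adjusted p under 0.05), where 0% of the 6603 genes tested were called. None of the 4 had an unadjusted p under 0.05, as 5.29% of the genes tested did. Slopes were positive for 2 of them and negative for 2. Their median was -0.0039 log2 per ms beside -0.0074 over all genes tested. With quantile normalization repeated it was 0.0064 beside 0.0029, and with arrays centred on their medians -0.0038 beside -0.0073. The interval of Jchain is the widest of the 4, and a ratio of up to 3.35 across the T2 range lies within it. The median SD of the 4 genes was 0.22 log2, beside 0.11 over all genes tested. Of all genes tested, 38.2% shared a value on 3 or more arrays, which lowers their spread, and none of the 4 did.

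Jchain, Mzb1 and Xbp1 had the same mice at their ends: in each, mouse 1 was highest and mouse 2 lowest. This was so for 4.85% of the 6603 genes tested, and 23.6% of them were lowest in mouse 2. Mice 1 and 2 held the ends in either order for 8.53%. Genes with a tied end were not counted. The pattern was taken from these same values, so the shares describe it and do not test it. The centred profiles of Xbp1 and Mzb1 differed by a root mean square of 0.14 log2 over the 5 arrays. Those of Jchain and Mzb1 differed by 0.34 and those of Jchain and Xbp1 by 0.36. Edem2, with equal values in mice 1 and 2, differed from Xbp1 by 0.14, from Mzb1 by 0.27 and from Jchain by 0.42. The measure depends on how much each gene varies, so a small difference need not mean a shared pattern. Jchain departed most in mice 3 and 4. In mouse 4 it was 0.49 log2 under its own mean, while Mzb1 was 0.0053 under and Xbp1 0.061 above theirs. In mouse 3 it was 0.48 above its mean, with Xbp1 0.10 above and Mzb1 0.025 under.

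Genes of mature B cells also differed between these mice. Of 15 listed, 14 were measured and all 14 passed the filter. Their mean log2 intensity was 8.82 (mouse 5), 8.82 (mouse 4), 8.28 (mouse 3), 8.25 (mouse 2) and 9.11 (mouse 1). Each of the 14 was higher in mouse 1 than in mouse 2, as 45.2% of all genes tested were. With equal values counted too, 68.4% of all genes tested were at least as high in mouse 1 as in mouse 2. Ms4a1, which encodes CD20, read 913, 839, 689, 565 and 1171 in mice 5, 4, 3, 2 and 1. Pax5, the B cell factor that Blimp-1 silences, read 642, 568, 336, 363 and 792 in that order. Mouse 3 was low for B cell genes and high for Jchain, and mouse 4 was higher for B cell genes and low for Jchain. Set against the B cell mean, Jchain was 0.85 log2 above its average in mouse 3 and 0.65 below it in mouse 4, and its SD was 0.54, beside 0.50 without the list. For Mzb1 the SD was 0.22 against the list and 0.27 without it, for Xbp1 0.31 and 0.17, and for Edem2 0.43 and 0.087. The list mean itself had an SD of 0.38 over the mice and was subtracted in full. A gene that varies much less than the list therefore gains SD even if it follows the list. These SDs cannot show whether Xbp1 or Edem2 followed the B cell genes. The largest t for the T2 slope among B cell genes belonged to Cd79a, of the antigen receptor (-0.065 ± 0.045), Blk, a kinase (-0.094 ± 0.070), and Cd37, a tetraspanin (-0.046 ± 0.036), with limma adjusted p = 0.828 for each.

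**Figure D2:**
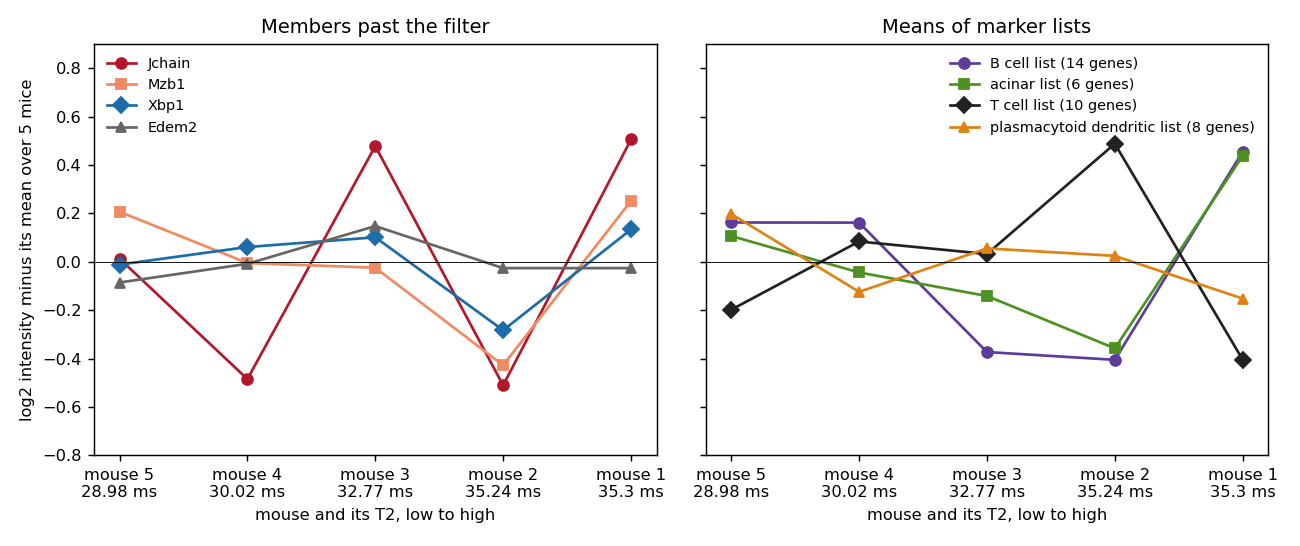
Log2 intensity minus its mean over the 5 mice (vertical axis) in each mouse, ordered by T2 from low to high (horizontal axis); the left panel shows the 4 genes past the expression filter and the right panel the means of 4 marker lists over their genes past the filter. Jchain, Mzb1 and Xbp1 have their lowest point in mouse 2, as the B cell and acinar lists do, and the T cell list has its highest there. The B cell list is nearly as low in mouse 3 as in mouse 2.

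The mean of the acinar transcripts had the same ends. Of 13 acinar genes measured 6 passed the filter, of which 5 were lowest in mouse 2, beside 23.6% of all genes tested. The mean log2 intensity of the 6 was 7.06 (mouse 5), 6.91 (mouse 4), 6.81 (mouse 3), 6.60 (mouse 2) and 7.39 (mouse 1). The log2 means of the 13 ran from 3.76 to 8.19. Cpa1, a carboxypeptidase, read 194, 182, 149, 121 and 239.8 in mice 5, 4, 3, 2 and 1, and Ctrb1, chymotrypsinogen, 366, 274, 288, 182 and 404. Cela1, an elastase, had a T2 slope of 0.043 ± 0.033 (limma adjusted p = 0.828). None of the 8 measured epithelial and ductal genes passed the filter, with log2 means between 3.51 and 5.38. The part of acinar or B cell RNA in the values of Jchain, Mzb1 and Xbp1 was not tested. A covariate leaves fewer residual degrees of freedom than the 3 of the reported fit, so the SEs of such fits to 5 arrays are themselves uncertain. With the acinar mean as a covariate the T2 slope of Mzb1 was -0.034 ± 0.013 (limma adjusted p = 0.621), that of Jchain 0.040 ± 0.076 (0.935) and that of Xbp1 -0.014 ± 0.023 (0.915). With the B cell mean as a covariate the slopes were -0.020 ± 0.030 for Mzb1, 0.049 ± 0.095 for Jchain and -0.0077 ± 0.028 for Xbp1, with limma adjusted p of 0.946, 0.970 and 1.

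Other leukocytes moved otherwise. The mean of 10 T cell genes was highest in mouse 2, at 8.75, and lowest in mouse 1, at 7.86, with a median T2 slope of 0.023 log2 per ms and none called. Of 12 macrophage genes measured 9 passed the filter, with a mean of 8.88 (mouse 5), 8.86 (mouse 4), 8.26 (mouse 3), 7.65 (mouse 2) and 7.53 (mouse 1). All 9 macrophage slopes were negative, beside 67.9% over all genes tested. An unadjusted p under 0.05 was found for 7 of the 9, beside 5.29% over all genes, and none was called by limma. The list was chosen with earlier results of these data known, so these counts are a description and not a test. Of 10 plasmacytoid dendritic cell genes measured 8 passed the filter, with list means between 6.61 in mouse 1 and 6.96 in mouse 5. Siglech, a surface lectin of these cells, read 97.5, 45.2, 82.4, 71.2 and 43.7 in mice 5, 4, 3, 2 and 1, so it was low with Jchain in mouse 4 and high with it in mouse 3, but lowest in mouse 1, where Jchain was highest. Bst2, a tetherin, Irf8, a transcription factor, and Lair1, an inhibitory receptor, had slopes of -0.018, -0.027 and -0.0097 and were not called.

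Antibody genes could be followed for few chains. Of 12 constant region genes 3 were measured and 2 passed the filter. Ighm, the heavy chain of IgM, read 301 (mouse 5), 286 (mouse 4), 290.2 (mouse 3), 185 (mouse 2) and 314 (mouse 1), so mouse 2 stood below the rest. Igha, the heavy chain of IgA, read 216, 244, 211, 195 and 209 in that order, with mouse 4 highest and mouse 2 lowest. The T2 slope of Ighm was -0.047 ± 0.049 log2 per ms (limma adjusted p = 0.850) and that of Igha -0.029 ± 0.015 (limma adjusted p = 0.828). Ighg3 lay under the filter, at a log2 mean of 3.32, and the other IgG chains and Igkc were not analysed here.

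Of 19 further genes of plasma cell identity and survival that were measured, 14 passed the filter and none passed the T2 test. Their slopes were negative for 10 and positive for 4, beside 67.9% negative over all genes tested. The median was -0.013 log2 per ms, beside -0.0074 over all genes tested. Irf4, a factor that plasma cells need, read 96.5, 96.5, 87.8, 67.8 and 127 in mice 5, 4, 3, 2 and 1. Pou2af1, a coactivator of B lineage genes, read 279.6, 279.6, 276, 211 and 326 in that order. Both were highest in mouse 1 and lowest in mouse 2. In all, 7 of the 14 genes were lowest in mouse 2, beside 23.6% of all genes tested. Cxcr4, a homing receptor, had a slope of -0.037 ± 0.019, St6gal1, a sialyltransferase, -0.019 ± 0.0094 and Mcl1, a survival factor, -0.041 ± 0.030 (limma adjusted p = 0.828 for each). Tnfrsf17, the survival receptor BCMA of plasma cells, lay under the filter, with intensities between 11.0 and 13.2.

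The wider secretory pathway was read by 5 lists, with 61 genes past the filter of 70 measured. None of the 61 passed the T2 test. Slopes were negative for 47, positive for 11 and 0 for 3, or 77.0% negative beside 67.9% over all genes tested, and their median was -0.020 beside -0.0074. Other scalings were added for this list after seeing the data. With quantile normalization repeated, 63.9% were negative beside 43.9% over all genes, with medians of -0.0080 and 0.0029. With arrays centred on their medians, 77.0% were negative beside 67.5%, with medians of -0.019 and -0.0073. The negative lean over all genes thus turned with repeated quantile normalization and stayed with centring. In the reported fit an unadjusted p under 0.05 was found for 4 of the 61 genes, 6.56% beside 5.29% over all genes. Each of the 4 slopes was negative, as were 303 of the 349 over all genes. Derl1, a derlin related to Derl3, had the steepest slope of the 61, -0.083 ± 0.012 log2 per ms (limma adjusted p = 0.335). It read 303 (mouse 5), 291 (mouse 4), 268 (mouse 3), 206 (mouse 2) and 217 (mouse 1), so mice 5, 4 and 3 read higher than mice 2 and 1, which have the highest T2. Hspa5, the ER chaperone BiP, had a slope of -0.064 ± 0.017 (limma adjusted p = 0.677) and read 952, 877, 691, 731 and 699 in that order. Pdia6, a disulfide isomerase, had a slope of -0.054 ± 0.019 and Lman1, a cargo receptor for transport to the Golgi, -0.036 ± 0.011 (limma adjusted p = 0.828 for each).

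In the ER translocation list 12 of 16 slopes were negative. Those with the largest t were Ssr4, a subunit of the translocon-associated complex (-0.058 ± 0.022), Sec61a1, the channel itself (-0.035 ± 0.016), and Srprb, of the signal recognition particle receptor (-0.028 ± 0.014). In the folding list 15 of 19 were negative, among them P4hb, a disulfide isomerase, at -0.068 ± 0.024. In the degradation list 8 of 10 were negative, with Sel1l, a part of the ubiquitin ligase complex, at -0.048 ± 0.022 and Os9, a lectin, at -0.029 ± 0.014. Edem1 and Edem3, relatives of Edem2, had slopes of -0.016 and -0.0025. In the transport list 7 of 10 were negative, with Sar1a, a GTPase of vesicle coats, at -0.031 ± 0.015 and Kdelr1, which returns ER proteins from the Golgi, at 0.019 ± 0.011. In the unfolded protein response list 5 of 6 were negative, with Ern1, which encodes Ire1, at -0.075 ± 0.042, Ppp1r15a, a phosphatase subunit, at -0.060 ± 0.049 and Atf4, a transcription factor, at -0.025 ± 0.022. The limma adjusted p of the genes named here lay between 0.828 and 1.

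**Figure D3:**
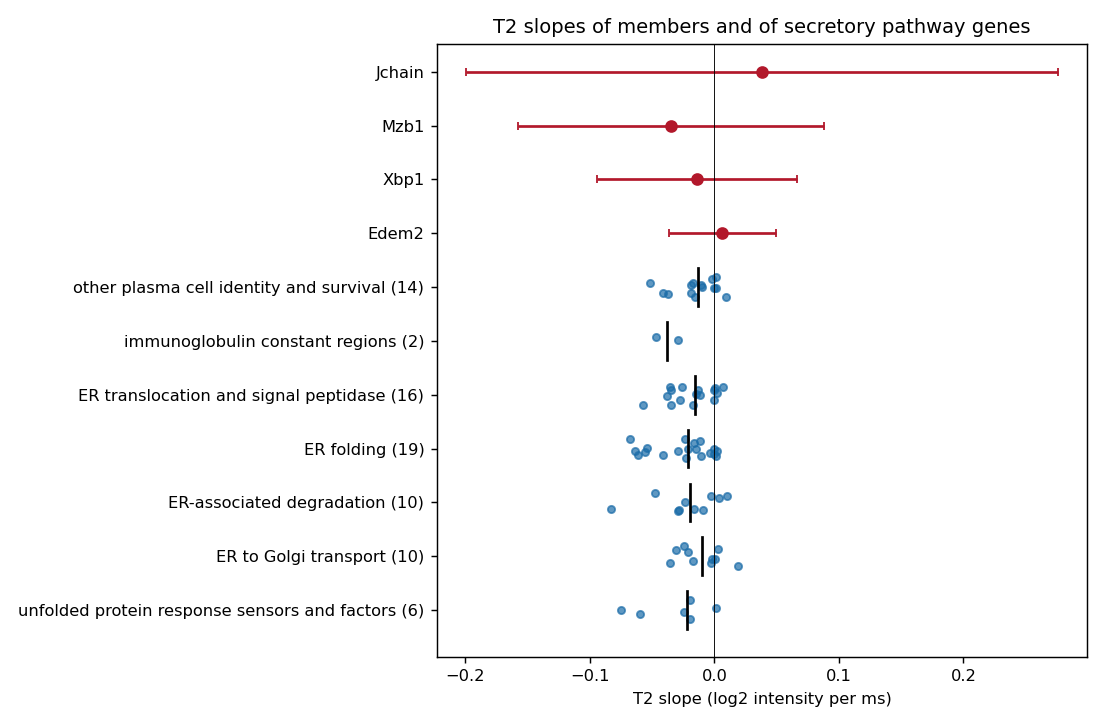
T2 slope in log2 intensity per ms (horizontal axis) of the 4 genes past the filter, in red with 95% intervals of limma's moderated fit, and of the genes past the filter in 7 lists, in blue with 1 point for each gene, the number of genes in brackets and the list median as a black bar. All 4 red intervals span 0, that of Jchain from -0.20 to 0.28, and Derl1 is at -0.083.

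Jchain was the only one of the 8 with a range of at least 1 log2 over the mice, as 2.92% of the genes tested had. Of the 192 other such genes the nearest centred profile was that of F13a1, the A chain of coagulation factor XIII, with a root mean square difference of 0.20 log2 over the 5 arrays. F13a1 read 241 (mouse 5), 149 (mouse 4), 421 (mouse 3), 168 (mouse 2) and 293 (mouse 1). Like Jchain it was high in mice 3 and 1 and low in mice 4 and 2. Tppp3, a tubulin-binding protein, and Fgd2, an exchange factor for the GTPase Cdc42, followed with differences of 0.24 and 0.29. Tppp3 read 83.5, 70.5, 83.5, 51.0 and 115 and Fgd2 181, 169, 176, 116 and 238 in mice 5, 4, 3, 2 and 1.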

How the data were processed

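Total RNA of the sorted CD45+ cells, extracted with TriZol and labelled with biotin per the labels' protocols, was measured on 1 array for each of 5 mice. The deposited intensities are on a linear scale (2.87 to 19435). Per the submitters' processing notes, RMA and Affymetrix Power Tools were used; no version of either is named in the sources used here. The labels name no batch. Precision is limited by having 5 arrays.

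Intensities were set to log2. Of 35556 probe sets 21789 had 1 gene symbol in GEO's platform annotation, and the set of highest mean stood for each gene. Log2 intensity was fitted on T2 in ms across the 6603 genes with a mean of at least 6, with limma 3.58.1 in R 4.3.3 (3 residual degrees of freedom, two-sided, Benjamini-Hochberg adjustment, threshold 0.05). The code was tested on simulated data. Profiles were compared by root mean square difference, since 5 mice are too few for correlations. In 38.2% of the genes tested 3 or more arrays shared a value, which lowers their residual spread.

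The 8 genes and 13 further lists (181 genes) were chosen with earlier results of these data known. The rule for named genes took the 8 genes, those with the 3 largest absolute moderated t of each list (for T cells and macrophages only list values are printed), 12 further genes, not all of which are reported here, and the 3 profiles nearest to any of the 8 with a range of at least 1 log2. Ptprc, Edem1, Edem3 and Ighg3 were named after their values were seen. Alternatives were other filters, normalizations, probe set rules, T2 ranks, variance models, covariates and each mouse left out.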

Additional observations from a re-analysis of the deposited data

Results flagged for a closer look

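In the 8 genes and the means of 12 lists a single mouse standing apart was looked for, by dividing the distance to the next mouse by the range over all 5. A share over 0.71 was taken as apart, and 4 of 20 were found. Chance gives about 1 in 20 for independent values without ties, but the 20 items come from the same 5 arrays. Sdc1 stood apart in mouse 3, at a log2 intensity of 4.88 against 4.75 in each of the others, and Prdm1 in mouse 3, at 5.38 against 5.53. With equal values in the other 4 mice this share is 1 for any difference. Derl3 stood apart in mouse 5, at 4.93 against 5.24 to 5.31 (share 0.821). These 3 genes lie under the expression filter. The mean of Ighm and Igha stood apart in mouse 2, at 7.57 against 7.95 to 8.05 (share 0.803). In that mouse Ighm was at 7.53 against 8.16 to 8.30, and Igha at 7.61 against 7.71 to 7.93, so the gap was mostly that of Ighm.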

How the results depend on the processing

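None of the 4 genes past the filter passed the T2 test under any of the 17 alternatives that fitted it; the lowest limma adjusted p was 0.485, for Mzb1 without mouse 1. Over all genes the count of calls, 0 in the reported fit, was 3 with a filter of 7, 4 with quantile normalization repeated, 4 with array weights and 35 without genes that share a value on 3 or more arrays, which was tried after seeing the data. With a filter of 7 only 2 of the 8 genes passed it, Jchain and Xbp1, and with a filter of 5 there were 6. With each mouse left out, the count of calls stayed at 0, 4 genes passed the filter, and the median slope of the 4 lay between -0.030 and 0.017. Of 66 slopes of single genes under the alternatives 61 kept their sign and 5 turned it, each with 1 mouse left out. Without mouse 2 the slope of Xbp1 was 0.021 and that of Mzb1 0.012. Jchain had -0.020 without mouse 1 and -0.0067 without mouse 4, and Edem2 -0.0084 without mouse 5. Leaving out single mice moved the slope of Xbp1 between -0.040 and 0.021, Jchain between -0.020 and 0.13, Mzb1 between -0.087 and 0.012 and Edem2 between -0.0084 and 0.013. No paired analysis was possible because the mice form 1 group.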
